A study of Mus musculus with 33 samples.

Results

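The SWI/SNF subunits described here are Pbrm1 (polybromo), Smarca2, Smarca4, Smarcc1, Smarcc2, Arid1a, Arid1b, Arid2 and Brd7. They were found by exact gene name, together with Pb1, an older name of Pbrm1 that RefSeq also lists for another gene. They accounted for 14 of the 3885 splice events measured by RASL-seq and for 9 of the 22970 genes of the 3′-end table. Of these events, 2 are named Pb1 and 5 Pbrm1. Smarca2 had 4 events, and Smarca4, Smarcc2 and Arid1a had 1 each. For Smarcc1, Arid1b, Arid2 and Brd7 the tables gave a 3′-end level and no splice event. The set was chosen by the difference of the long-isoform share of Pb1 event 3769 between genotypes. The values of that event, and of event 4647 that shares counts with it, are therefore given as a description without a test.

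SWI/SNF complexes use the energy of ATP to slide or evict nucleosomes, and so open or close DNA to transcription factors. Smarca4 (BRG1) and Smarca2 (BRM) are the alternative ATPases, and Smarcc1 (BAF155) and Smarcc2 (BAF170) form the scaffold. Arid1a and Arid1b belong to the BAF form of the complex, while Pbrm1 (BAF180), Arid2 and Brd7 belong to the PBAF form. Pbrm1 reads acetylated histones through its bromodomains, and mouse embryos without it have defects of the heart chambers. Rbfox2 binds RNA near exons and steers their inclusion or skipping, and it is abundant in heart muscle.

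RNA came from cardiac myocytes isolated from hearts of Rbfox2 knockout (KO) mice and of wild-type (WT) mice, both on a Black Swiss background. RASL-seq covered KO and WT at 5, 9 and 18 weeks of age, and 3′-end sequencing covered KO and WT at 9 weeks. The allele, the Cre driver and the deleted part of Rbfox2 are not given in the labels. The labels list 1 sample per group, while each group has 3 columns in the tables. These columns differed by more than counting noise, with a chi-square of 5.84 to 64.6 per degree of freedom, and were taken as 3 libraries. Whether the libraries came from separate animals is not stated, so p-values measure the spread between libraries, which may be technical.

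RASL-seq ligates 2 DNA probes where they lie side by side across an exon junction of the RNA, and counts the amplified products. Each event has short-isoform counts and long-isoform counts, and the long share is the percentage of the event's counts that are long. Probe pairs may ligate with unequal efficiency, so the share compares groups and is not a share of molecules. Libraries held 1998027 to 12876511 counts, and levels are given in counts per 1000000 of the library (CPM). The 3′-end libraries held 4007538 to 9563471 reads, and levels are given in reads scaled to 10000000 a library (RP10M). The Rbfox2 event 7670 ranged from 18.0 to 93.2 CPM in the 9 KO libraries and from 202 to 343 CPM in the 9 WT libraries. Event 8783 ranged from 7.01 to 41.9 CPM in KO and from 66.9 to 119 CPM in WT. By 3′-end sequencing Rbfox2 stood at 117, 81.7 and 66.4 RP10M in KO and at 323, 297 and 214 RP10M in WT. Event 8797, with far fewer counts, did not follow the labels: it averaged 4.12, 5.53 and 2.51 CPM in KO and 5.99, 3.26 and 4.001 CPM in WT at weeks 5, 9 and 18, overlapped at weeks 5 and 18 and was higher in each KO library at week 9. The position of event 8797 relative to the deleted part is not given, and why it differed was not tested. By 3′-end sequencing, markers of myocytes summed to between 954692 and 1003976 RP10M in KO and between 887579 and 995541 RP10M in WT, over 8 genes. The summed markers of atrial myocytes were higher in KO (17799 to 33726 RP10M) than in WT (746 to 2340), over 4 genes (Nppa, Myl4, Myl7 and Sln). The sum does not show the part of each gene, so a single gene could carry it, and it does not count atrial cells. Macrophage markers were 908 to 1245 RP10M in KO and 258 to 823 in WT, and smooth muscle and pericyte markers were 1597 to 2685 in KO and 3132 to 4004 in WT. Fibroblast, endothelial, erythroid and lymphocyte markers overlapped between genotypes. The part of these cell types in the results below was not tested.

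The Pb1 event 3769, a cassette event in the table, was mostly long in KO myocytes and mostly short in WT myocytes. At week 5 the long share was 60.3%, 53.0% and 43.9% in the KO libraries and 4.01%, 11.3% and 12.1% in the WT libraries. At week 9 it was 50.8%, 76.5% and 74.0% in KO and 5.52%, 4.45% and 4.54% in WT. At week 18 it was 67.7%, 82.7% and 77.2% in KO and 1.92%, 2.33% and 2.25% in WT. The genotypes did not overlap at any age, and the lowest KO library of all ages, at 43.9%, lay above the highest WT library, at 12.1%. The KO mean was 52.4% ± 8.26, 67.1% ± 14.2 and 75.9% ± 7.61 at weeks 5, 9 and 18, against a WT mean of 9.14% ± 4.46, 4.83% ± 0.59 and 2.16% ± 0.22 (SD, n = 3 each). KO minus WT came to 43.3, 62.2 and 73.7 percentage points at the 3 ages. The KO mean was highest and the WT mean lowest at week 18, but the KO libraries of weeks 5 and 9 overlapped, as did those of weeks 9 and 18.

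**Figure D1:**
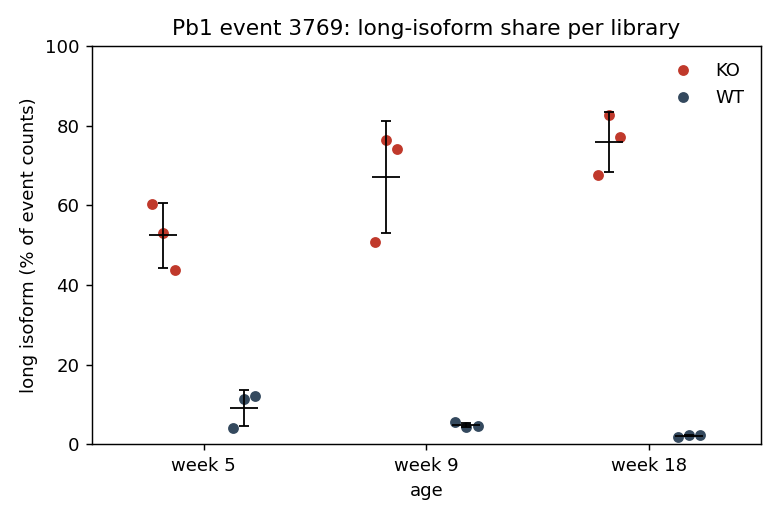
Long-isoform share of Pb1 event 3769 (percent of the event's counts) in each library at 5, 9 and 18 weeks, KO left of WT. Points are libraries, bars are the mean and SD of 3. Every KO point lies at or above 43.9% and every WT point at or below 12.1%.

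The Pb1 long share, which chose this set, was set beside the signal of Rbfox2 event 7670 in each library, as a description without a test. At every age the KO library with the most counts of that event had the lowest Pb1 long share of its group. These were library 3 at week 5 (93.2 CPM of Rbfox2 event 7670 and a long share of 43.9%), library 1 at week 9 (82.4 CPM, 50.8%) and library 1 at week 18 (44.4 CPM, 67.7%). The KO library with the least counts of event 7670 had the highest long share at week 5 (41.3 CPM, 60.3%) and at week 9 (26.96 CPM, 76.5%). The second lowest had it at week 18 (19.1 CPM, 82.7%). By Rbfox2 event 8783 the same KO libraries had the most counts, at 41.9, 32.4 and 18.6 CPM. The least at week 9 was then in library 3 (9.84 CPM), with a long share of 74.0%. By event 8797, with few counts, library 3 had the most at week 9 (7.03 CPM), and at weeks 5 and 18 the same libraries as above had the most. Without the library highest in Rbfox2 or any other single library, KO minus WT lay between 39.3 and 47.5 points at week 5, 57.6 and 70.4 at week 9, and 70.3 and 77.8 at week 18. In WT, the library with the most of event 7670 had the lowest Pb1 long share at week 5 (310 CPM, 4.01%). The same held at week 9 (343 CPM, 4.45%), but at week 18 it had the highest share (338 CPM, 2.33%). In bulk RNA, fewer cells that lost Rbfox2 and more Rbfox2 left per cell cannot be told apart. The cause of the spread between libraries was not tested.

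The long count of event 3769 is also, number for number, the short count of the second Pb1 event, 4647. The 2 events therefore describe 3 ligation products, here called the first (short of 3769), the shared one and the third (long of 4647). The first product was lower in KO, at 421 ± 199, 289 ± 171 and 191 ± 77.1 CPM at weeks 5, 9 and 18, against 1199 ± 128, 1287 ± 160 and 1224 ± 44.3 CPM in WT (SD, n = 3 each). The shared product was higher in KO, at 435 ± 61.6, 556 ± 111 and 600 ± 141 CPM, against 119 ± 54.6, 65.2 ± 8.89 and 27.1 ± 2.49 CPM in WT. The ratio of means, KO over WT, was 3.67, 8.54 and 22.2 for the shared product at weeks 5, 9 and 18. No KO library overlapped a WT library in the first or in the shared product.

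The third product behaved differently from its partners. It stood at 95.9 ± 29.6, 71.9 ± 22.7 and 65.8 ± 7.63 CPM in KO and at 92.5 ± 18.0, 73.8 ± 7.40 and 42.6 ± 10.6 CPM in WT at weeks 5, 9 and 18 (SD, n = 3 each). The genotypes overlapped at weeks 5 and 9 and not at week 18, when KO ranged from 57.1 to 71.1 CPM and WT from 34.6 to 54.7. The long share of event 4647 was 17.8% ± 2.60, 11.5% ± 3.39 and 10.1% ± 1.205 in KO and 45.9% ± 9.08, 53.2% ± 3.16 and 60.7% ± 6.54 in WT. At weeks 5 and 9 the genotypes thus differed in the CPM of the shared product, which stands in the denominator of this share. They overlapped in the CPM of the third product. As a share of the 3 products, the third was higher in every KO library than in any WT library of its age. This share was 9.78% to 10.3% in KO and 4.93% to 7.83% in WT at week 5. The ranges were 6.62% to 8.38% and 5.07% to 5.32% at week 9, and 7.29% to 8.64% and 2.65% to 4.36% at week 18.

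**Figure D2:**
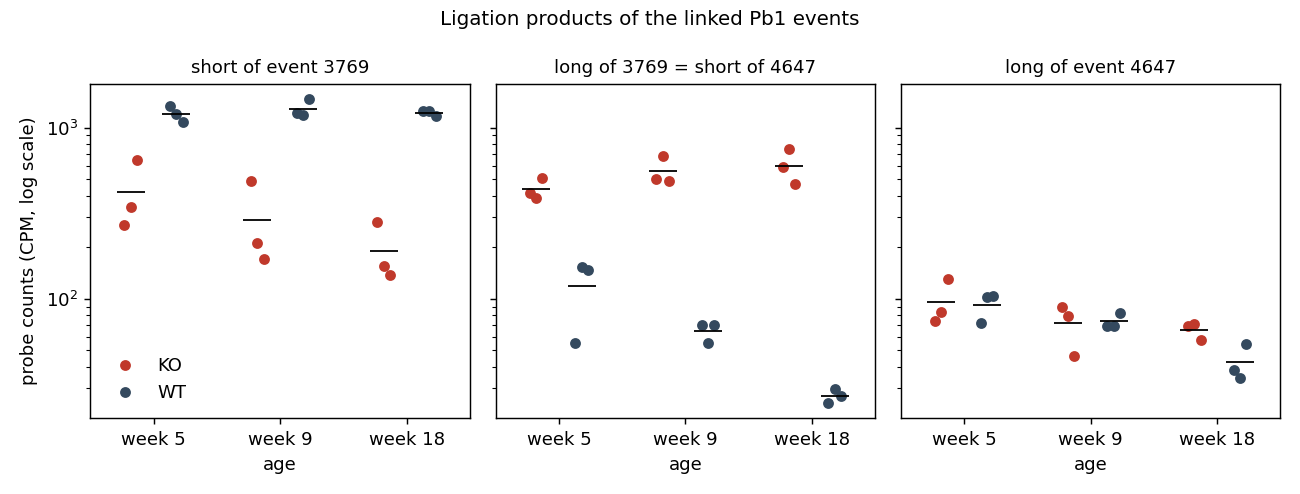
CPM (log scale) of the 3 ligation products of the linked Pb1 events at 5, 9 and 18 weeks, KO left of WT. Points are libraries and bars are means of 3. The first product is lower and the shared product higher in every KO library, while the third overlaps between genotypes at weeks 5 and 9.

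Files and labels give no position for these events, so the exon concerned is not named. In the RefSeq gene table for mouse, Pb1 is an older name of Pbrm1 and also of Adgrg3 (Gpr97), an adhesion receptor. By 3′-end sequencing Gpr97 stood at 10.0, 2.1 and 7.4 RP10M in KO and 2.7, 5.4 and 15.7 RP10M in WT. Pbrm1 stood at 646, 621 and 564 RP10M in KO and at 536, 526 and 645 RP10M in WT. The Pb1 events had 791 to 856 CPM in KO and 1251 to 1352 CPM in WT as the summed group means of event 3769. The name alone does not settle which gene the probes target.

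The 5 events filed under Pbrm1 itself divided into 1 with differences between genotypes and 4 without a call. Event 9094, a cassette event with few counts, rose in KO at weeks 9 and 18. Its summed level was 23.2, 21.5 and 24.7 CPM in the KO libraries at week 5 and 5.23, 17.8 and 12.7 CPM in the WT libraries. At week 9 it was 23.03, 18.7 and 10.2 CPM in KO and 6.84, 4.89 and 8.47 CPM in WT. At week 18 it was 15.98, 18.0 and 10.51 CPM in KO and 2.46, 3.78 and 3.75 CPM in WT. Every KO library exceeded every WT library of its age. How often genotypes lie apart in this way over all RASL-seq events was not counted, so such separations are descriptions for every event here. In edgeR's quasi-likelihood test over the 2557 events with a mean of at least 20 counts, the log2 change of the summed counts was 1.08 at week 5 (SE 0.35, adjusted p = 0.0687), 1.36 at week 9 (SE 0.36, adjusted p = 0.0156) and 2.24 at week 18 (SE 0.41, adjusted p = 6.29e-04). All adjusted p-values are Benjamini-Hochberg values over the whole table, with a threshold of 0.05. The week 9 call was lost without KO library 1 (adjusted p = 0.0576), KO library 2 (0.0664), WT library 1 (0.0512) or WT library 2 (0.0679) of that week. Without WT library 2 of week 5 the week 5 change was 1.52 and passed (adjusted p = 0.0225).

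The isoform balance of event 9094 shifted as well. Short counts in KO were 1, 1 and 7 at week 5, 1, 0 and 0 at week 9, and 0, 0 and 0 at week 18, beside 67, 96 and 264, then 122, 135 and 29, then 68, 62 and 21 long counts. In WT the short counts were 4, 3 and 0, then 1, 3 and 13, then 3, 1 and 3, beside 36, 74 and 38, then 21, 18 and 96, then 10, 11 and 12 long counts. The long share was 98.3% ± 0.80, 99.7% ± 0.47 and 100% in KO and 95.4% ± 5.04, 89.7% ± 5.08 and 82.9% ± 7.78 in WT (SD, n = 3 each). The genotypes overlapped at week 5 and not at weeks 9 and 18. edgeR's test of the isoform ratio, fitted to 2032 events, gave a log2 change of 1.25 at week 5 (SE 0.90, adjusted p = 0.480), 4.69 at week 9 (SE 1.05, adjusted p = 0.0036) and 7.11 at week 18 (SE 1.59, adjusted p = 0.0029). The last value depends on how a count of 0 is handled and sets no bound, and its SE does not measure precision. By counts, the short isoform made up 0 of 151 counts in KO at week 18, which allows up to 1.99%, against 7 of 40 counts (17.5%) in WT. The WT share was 8.81-fold the KO limit, with 3 counts over the group as the floor. That ratio pools the libraries and leaves out the counting error of the 7 WT counts, so it is not a bound.

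The other 4 Pbrm1 events gave no difference that passed. Event 4275 had a long share of 34.3%, 37.9% and 36.2% in KO and 38.98%, 37.1% and 38.7% in WT at weeks 5, 9 and 18. The genotypes were apart at week 5, where KO ranged from 33.9% to 34.8% and WT from 37.0% to 41.6%, yet the ratio did not pass (log2 change -0.29, adjusted p = 0.416). Event 8218, with 104307 counts the most counted event of those filed under Pbrm1, had 19.02%, 18.9% and 21.3% in KO and 17.3%, 20.3% and 17.8% in WT. Events 7662 and 7793 were long in nearly every count, with 1 short count of 14105 and 0 of 11742. They had too few short counts for the ratio test. The count of 0 for event 7793 allows a short share of up to 0.0256%. The summed counts of these 4 events changed by -0.23 to 0.14 on the log2 scale over the 3 ages, and the smallest adjusted p was 0.403. Summed levels of 7662 and 7793 were apart at week 5 and overlapped at weeks 9 and 18. At week 5, event 7662 ranged from 144 to 154 CPM in KO and from 171 to 187 CPM in WT. Event 7793 ranged from 125 to 130 CPM in KO and from 137 to 184 CPM in WT.

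Smarca2, an ATPase of the complex, also had linked events, since the short count of event 8271 is the long count of event 8330. The rarest of its 3 products was the short isoform of 8330, and its proportion to the shared product was higher in KO. The long share of event 8330 was 86.0%, 88.2% and 87.6% in the KO libraries at week 5 and 94.9%, 95.7% and 89.6% in the WT libraries. At week 9 it was 89.4%, 86.8% and 88.8% in KO and 94.9%, 95.5% and 95.9% in WT. At week 18 it was 89.4%, 83.1% and 89.7% in KO and 96.4%, 97.5% and 97.7% in WT. The genotypes did not overlap at any age, although WT library 3 of week 5 lay close to the KO libraries. The log2 change of the long-to-short ratio was -1.13 at week 5 (SE 0.34, adjusted p = 0.0369), -1.50 at week 9 (SE 0.34, adjusted p = 0.0034) and -2.28 at week 18 (SE 0.38, adjusted p = 1.03e-04).

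The calls at weeks 9 and 18 held without any single library, whereas the week 5 call was lost without any of the 3 KO libraries of that week (adjusted p = 0.115, 0.0690 and 0.0661 without libraries 1, 2 and 3) or without WT library 1 or 2 (0.182 and 0.166). In levels, the short isoform of event 8330 stood at 8.20 ± 2.67, 8.24 ± 0.67 and 9.77 ± 1.60 CPM in KO at weeks 5, 9 and 18. It stood at 4.86 ± 2.79, 3.94 ± 0.74 and 2.43 ± 0.35 CPM in WT (SD, n = 3 each). These levels overlapped at week 5, with 6.46 to 11.3 CPM in KO and 2.77 to 8.03 CPM in WT, and so did its share of the 3 products, with 0.93% to 1.55% in KO and 0.42% to 1.18% in WT. Neither overlapped at weeks 9 and 18. The product shared with event 8271 averaged 55.4, 62.8 and 69.6 CPM in KO and 67.4, 82.2 and 85.7 CPM in WT. The main product, the long isoform of 8271, made up 90.8%, 91.1% and 91.5% of the 3 products in KO and 89.6%, 89.5% and 88.6% in WT.

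Event 8271 moved less. Its long share was 91.9% ± 1.53, 92.1% ± 1.03 and 92.4% ± 1.30 in KO and 90.2% ± 0.49, 89.9% ± 1.65 and 88.9% ± 1.13 in WT at weeks 5, 9 and 18 (SD, n = 3 each). The genotypes overlapped at weeks 5 and 9. At week 18 they did not, with KO between 91.4% and 93.9% and WT between 87.7% and 89.9%, and the log2 change of the ratio was 0.63 (SE 0.22, adjusted p = 0.0537). That value passed without KO week 5 library 3 (adjusted p = 0.0416), without WT week 9 library 3 (0.04999) and without KO week 18 library 3 (0.0453). The 2 remaining Smarca2 events had few counts. Event 8385, with a mean of 44.7 counts per library, had a long share of 90.9%, 97.6% and 92.5% in KO and 89.1%, 92.0% and 88.3% in WT, with overlap at each age. Event 8957 had 3 long counts of 1340 over the 18 libraries.

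Smarcc2, a scaffold subunit, had an alternative 5′ splice site event, 8166, whose long isoform was rare and was seen mainly in KO. At week 5 the long counts were 4 of 167, 4 of 233 and 10 of 434 in KO and 0 of 352, 0 of 288 and 0 of 194 in WT. At week 9 they were 2 of 249, 8 of 336 and 7 of 162 in KO and 0 of 196, 1 of 277 and 1 of 642 in WT. At week 18 they were 7 of 227, 0 of 120 and 1 of 100 in KO and 1 of 281, 1 of 188 and 0 of 259 in WT. The genotypes were apart at weeks 5 and 9 and overlapped at week 18.

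The long share of event 8166 was 2.14% ± 0.37, 2.502% ± 1.76 and 1.36% ± 1.57 in KO, against 0%, 0.17% ± 0.18 and 0.30% ± 0.27 in WT (SD, n = 3 each). The log2 change of the ratio was 5.67 at week 5 (SE 1.31, adjusted p = 0.0078), 3.42 at week 9 (SE 0.90, adjusted p = 0.0121) and 2.47 at week 18 (SE 1.08, adjusted p = 0.122). Event 8166 met the minimum mean of 1 long count only through its KO libraries. These p-values therefore lend no independent support to a rise in KO. As WT had no long count at week 5, the fitted value there is no bound, and its SE does not measure precision. The 0 of 834 WT counts allow up to 0.36%, with 3 counts over the group as the floor. The KO share of 18 in 834 counts (2.16%) was 6.0-fold that limit. That ratio pools the libraries and leaves out the counting error of the 18 KO counts, so it is not a bound either. The week 9 call was lost without KO library 3 (adjusted p = 0.0544) or WT library 3 (0.0922) of that week. At these counts a 95% Wilson interval for a single library is wide, for example 0.94% to 6.0% for KO library 1 of week 5, and it covers counting error only.

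**Figure D3:**
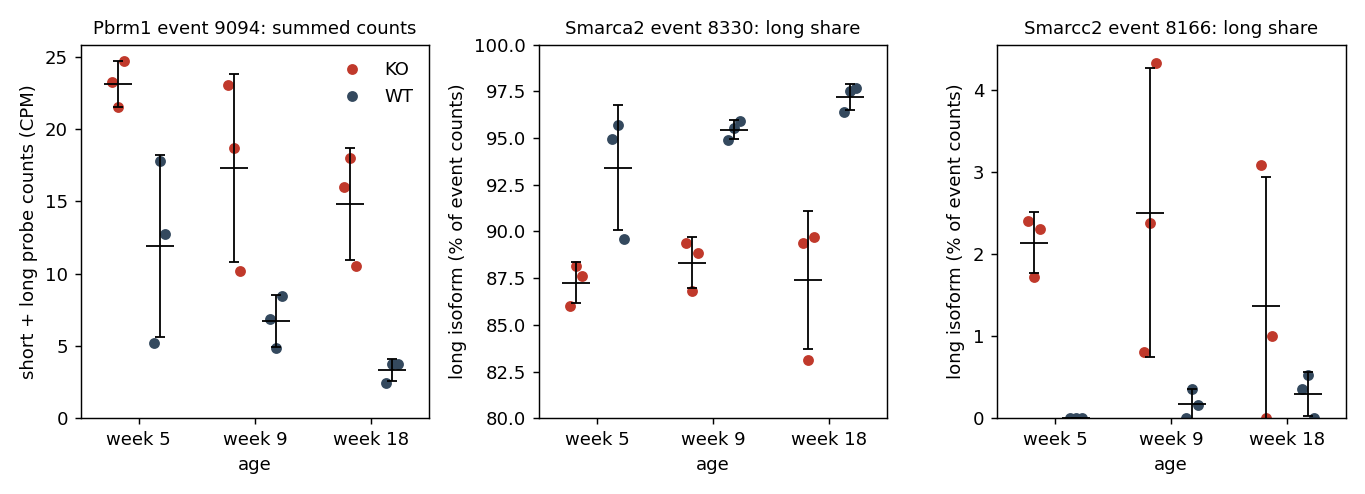
Summed CPM of Pbrm1 event 9094, long share of Smarca2 event 8330 (axis from 80% to 100%) and long share of Smarcc2 event 8166, at 5, 9 and 18 weeks, KO left of WT. Points are libraries, bars are the mean and SD of 3. Event 9094 is higher and the long share of 8330 lower in every KO library than in any WT library of the same age, and event 8166 overlaps at week 18.

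Smarca4, the alternative ATPase, kept a rare long isoform in event 4854 at similar levels. Its long share averaged 2.51% ± 1.04, 3.20% ± 0.67 and 3.32% ± 0.81 in KO and 2.83% ± 0.31, 3.46% ± 0.64 and 3.25% ± 1.10 in WT at weeks 5, 9 and 18 (SD, n = 3 each). The log2 changes lay between -0.25 and 0.02 with an SE of up to 0.32. The Arid1a event 7961, at an alternative 3′ splice site, had 0 short counts of 44972, which allows a short share of up to 0.00667%. Arid1a is a DNA-binding subunit of the BAF form, as is Arid1b.

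Of the 12 member events outside the Pb1 pair, 8 had enough counts of both isoforms for the ratio test. Smarcc2 event 8166 reached the minimum mean of 1 long count only through its KO libraries, as each WT library held 0 or 1. Its ratio calls therefore rest on an event that the filter kept because of KO. At week 5, 1 rose (8166) and 1 fell (8330), against 10.2% of the 2032 events tested that passed in either direction. At week 9, 2 rose (8166 and 9094) and 1 fell (8330), against 17% of all events. At week 18, 1 rose (9094) and 1 fell (8330), against 19.5% of all events. The median log2 ratio change of the 8 events was 0.18, 0.21 and 0.48 at weeks 5, 9 and 18, beside 0.05, 0.04 and 0.17 over all events. These counts rest on only 8 events, of which Smarca2 events 8271 and 8330 share a count column. Their difference from all events was not tested.

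Of the summed counts, 0 of 12 events passed at week 5 by edgeR, with 1 at an unadjusted p under 0.05 and 1 passing by DESeq2 (event 9094), against 7.94% of the 2557 events tested. At week 9, 1 of 12 passed (9094) against 12.2%, and at week 18, 1 of 12 passed (9094) against 18.8%. Summed counts of an event depend on the mix of isoforms where probes differ in efficiency. The part of that mix in these values was not tested.

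**Figure D4:**
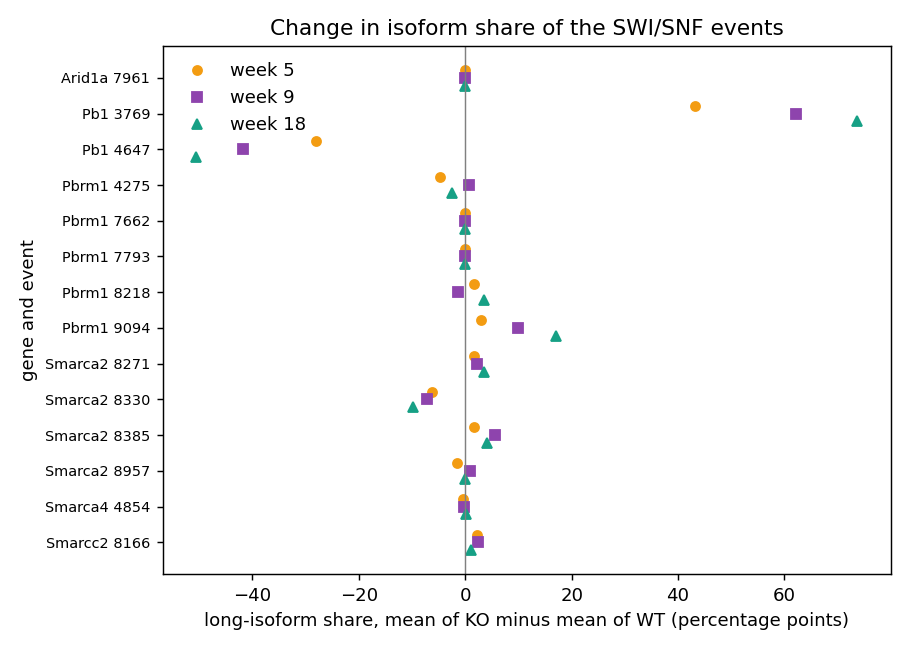
Difference in mean long-isoform share (KO minus WT, percentage points) for each of the 14 SWI/SNF events at 5, 9 and 18 weeks. Symbols are differences of means of 3 libraries per genotype. The linked Pb1 events 3769 (43.3 to 73.7 points) and 4647 lie far from 0. Of the other events, Pbrm1 9094 and Smarca2 8330 lie farthest from 0 at weeks 9 and 18, and Smarca2 8330 and Pbrm1 4275 at week 5.

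Ages were compared within each genotype and the KO effect was compared between ages. From week 5 to week 18, 0 of the 8 events passed within KO (3.44% of all events did) and 0 within WT (5.86% of all events did), by edgeR. DESeq2 and limma also called 0, and 1 event in KO and 2 in WT had an unadjusted p under 0.05. The difference of the KO effect between week 18 and week 5 passed for 0 of 8 events by edgeR, DESeq2 and limma, with 2 at an unadjusted p under 0.05, against 0.787% of all events. Its estimate was 5.85 for Pbrm1 event 9094 (SE 1.94, adjusted p = 0.199) and -1.15 for Smarca2 event 8330 (SE 0.51, adjusted p = 0.351). The larger KO differences of these events at week 18 are therefore not shown to differ from those at week 5.

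The overall RNA level of the genes was compared at week 9 with limma on log2(RP10M + 1). Among the ATPases, Smarca4 stood at 619, 662 and 623 RP10M in KO and 591, 434 and 783 RP10M in WT (log2 change 0.11, 95% interval -0.39 to 0.62). Smarca2 stood at 462, 475 and 264 RP10M in KO and 472, 328 and 621 RP10M in WT (log2 change -0.24, interval -0.90 to 0.42). For both, the KO libraries lay within or overlapped the range of WT.

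Of the scaffold subunits, Smarcc1 had 249, 199.9 and 122 RP10M in KO and 210.2, 209.9 and 231 RP10M in WT (log2 change -0.25, interval -0.89 to 0.39). Smarcc2 had 452, 419 and 411 RP10M in KO and 579, 331 and 576 RP10M in WT (log2 change -0.17, interval -0.71 to 0.37). KO library 3 was the lowest of the KO libraries for Smarcc1, Smarcc2 and Smarca2. Without it the estimates for Smarca2 and Smarcc1 turned positive, at 0.03 and 0.04.

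Of the BAF subunits, Arid1a had 2153, 2306 and 2045 RP10M in KO and 2577, 1896 and 3181 RP10M in WT (log2 change -0.20, interval -0.63 to 0.23). Arid1b had 44.9, 64.5 and 44.3 RP10M in KO and 73.2, 43.4 and 63.8 RP10M in WT (log2 change -0.22, interval -1.06 to 0.63). Both genes overlapped between genotypes.

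Of the PBAF subunits, Pbrm1, with the library values given above, averaged 611 ± 42.1 RP10M in KO and 569 ± 66.0 RP10M in WT (SD, n = 3 each), a log2 change of 0.11 (SE 0.18, interval -0.30 to 0.51, adjusted p = 0.823). Arid2 had 185, 142 and 119.9 RP10M in KO and 262, 138 and 141 RP10M in WT (log2 change -0.23, interval -0.93 to 0.47). Brd7 had 601, 557 and 465 RP10M in KO and 604, 570.0 and 613 RP10M in WT (log2 change -0.15, interval -0.55 to 0.26). The interval for Pbrm1 leaves room for changes of those sizes in either direction.

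By limma 0 of the 9 genes passed, with 0 at an unadjusted p under 0.05 and 0 by edgeR or DESeq2 on the recovered reads, against 1.6% of the 10858 genes tested. The smallest adjusted p was 0.644, for Arid1a. All 9 genes overlapped between genotypes, whereas 23.3% of the genes tested did not. The median log2 change of the 9 genes was -0.20, beside 0.07 over all genes tested.

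**Figure D5:**
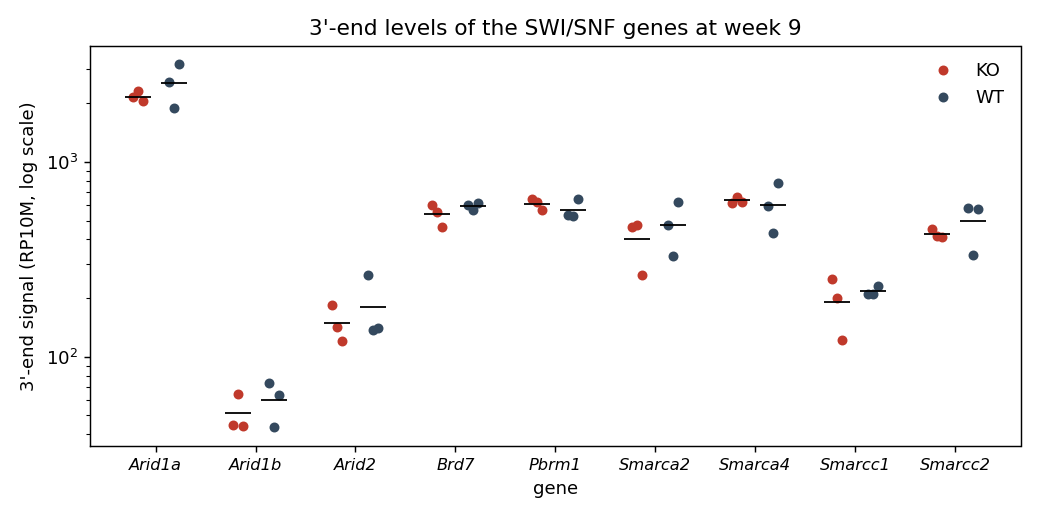
3′-end signal (RP10M, log scale) of the 9 SWI/SNF genes in each library at 9 weeks, KO left of WT. Points are libraries and bars are means of 3. The genotypes overlap for each of the 9 genes.

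Other subunits of the complex were looked up from a list of names. Of their 9 events, 4 could be tested, and 1 passed, at week 9, beside 17% of all 2032 events tested (10.2% at week 5 and 19.5% at week 18). The difference from all events was not tested. This was event 7084 of Dpf2, a histone-reading subunit, with a long share of 99.6% ± 0.06 in KO and 98.7% ± 0.53 in WT (log2 ratio change 1.83, SE 0.52, adjusted p = 0.0186). That call was lost without KO library 1 or 2 or WT library 1 or 3 of week 9, with adjusted p = 0.0602, 0.0557, 0.0525 and 0.127. At week 5, 0 passed by edgeR, DESeq2 and limma, with 1 at an unadjusted p under 0.05. At week 18, 0 passed by edgeR and DESeq2 and 1 by limma (Dpf2 event 7084 again), with 1 at an unadjusted p under 0.05. Of 17 further subunits tested by 3′-end level, 0 passed by limma, edgeR or DESeq2, with 3 at an unadjusted p under 0.05, beside 1.6% of all 10858 genes that passed by limma and 1861 of them at an unadjusted p under 0.05.

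Among remodellers of other families, 10 of 16 events could be tested for the isoform ratio. Week 5 gave 2 that fell, week 9 gave 2 that rose and 1 that fell, and week 18 gave 3 that rose and 2 that fell, beside 10.2%, 17% and 19.5% of all 2032 events tested at weeks 5, 9 and 18. The difference from all events was not tested. Bptf, the largest subunit of the NURF complex, fell at each age in event 9239, with a long share of 64.1% ± 5.78, 63.0% ± 7.01 and 59.0% ± 10.2 in KO and 85.1% ± 7.83, 90.7% ± 2.08 and 94.2% ± 1.03 in WT (SD, n = 3 each). Its log2 ratio change was -1.79, -2.55 and -3.46 at weeks 5, 9 and 18 (adjusted p = 0.0077, 1.93e-04 and 7.25e-06). Baz2b, a bromodomain protein, rose in events 9256 and 4142 at weeks 9 and 18. Event 9256 had a long share of 98.8% and 99.5% in KO and 90.8% and 91.3% in WT at weeks 9 and 18 (log2 ratio change 3.03 and 3.86, adjusted p = 7.66e-04 and 2.68e-04). Event 4142 had 37.0% and 45.4% in KO and 20.5% and 20.2% in WT (log2 ratio change 1.17 and 1.70, adjusted p = 0.0151 and 8.18e-04). The week 9 call of event 4142 was lost without KO library 2 of that week (adjusted p = 0.0632).

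Mta1, a subunit of the NuRD complex, fell in event 4624 at weeks 5 and 18. Its long share was 31.9% ± 2.21 and 41.4% ± 2.97 in KO at weeks 5 and 18 and 52.5% ± 13.2 and 57.6% ± 2.24 in WT (SD, n = 3 each; log2 ratio change -1.25 and -0.95, adjusted p = 0.0091 and 0.0299). The week 5 call was lost without WT library 1 of that week (0.0691). The week 18 call was lost without KO library 1 or 2 or any WT library of week 18 (adjusted p = 0.0936, 0.0671, 0.0729, 0.0526 and 0.0994). Cecr2, an ISWI-associated protein, rose in event 9205 at week 18 (log2 ratio change 1.26, adjusted p = 0.0403), with 94.7% ± 2.86 in KO and 91.5% ± 1.07 in WT (SD, n = 3 each). Without KO library 1 of week 18 its estimate was 0.34 (adjusted p = 0.629), and the call was also lost without any WT library of week 18 (0.0591, 0.105 and 0.0858) or KO library 2 or 3 of week 9 (0.0502 and 0.0501). In WT, the same event fell with age (week 18 over week 5, log2 ratio change -1.22, adjusted p = 0.0453), a call that neither DESeq2 nor limma made. By 3′-end level, 0 of 31 such genes passed by limma or edgeR and 1 by DESeq2 (Bptf), with 7 at an unadjusted p under 0.05, beside the same 1.6% and 1861 of 10858 genes. The median log2 change of these 31 genes was -0.41, beside 0.07 over all genes tested. Summed counts passed at no age by edgeR or DESeq2, for 0 of 5 events of the other subunits and 0 of 13 of the other remodellers. At an unadjusted p under 0.05 in edgeR's test there were 0, 1 and 1 events of the other subunits and 3, 0 and 1 of the other remodellers at weeks 5, 9 and 18.

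The events whose long share most resembled that of Pb1 event 3769 were ranked by Pearson's r over the 18 libraries, among 2189 events with a mean of at least 50 counts. The likeness is a description, since the 6 groups lie apart in genotype. The highest were Map3k7 event 4367 (r = 0.997), 1700012B15Rik event 8621 (-0.996), Phka1 event 3832 (0.993), Dnm1l event 4328 (-0.990) and Plod2 event 4047 (-0.989), and 100 events exceeded 0.9 in absolute value. Map3k7 encodes the kinase TAK1, Phka1 a subunit of phosphorylase kinase, Dnm1l the mitochondrial fission GTPase DRP1, and Plod2 a lysyl hydroxylase of collagen.

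With the mean of each group removed, which leaves the spread within groups, Map3k7 (0.961), Pdlim5 event 3760 (0.946), Phka1 (0.938), Art3 event 7801 (-0.930) and 1700012B15Rik (-0.914) came first. The spread of event 3769 within groups lay mostly in KO, with an SD of 7.61 to 14.2 points against 0.22 to 4.46 in WT. These values thus rest largely on the KO libraries. They are the extremes of a ranking and were not tested. The Map3k7 event had a mean long share of 54.2%, 65.6% and 72.3% in KO and 20.2%, 13.8% and 13.3% in WT at weeks 5, 9 and 18.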

How the data were processed

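The deposited RASL-seq table holds raw counts for either isoform of an event, per the file headers. The deposited 3′-end table (MAPS in the labels) holds a signal for each gene, scaled by the authors to 10000000 reads a library, per the file headers. Tools listed in the submitters' processing notes are Bowtie 0.12.7 and cutadapt 1.2.1, with mm9 as the build and no roles given. How reads of similar genes were counted is not given in the sources used here. The values of WT 3′-end library 2 sum to 9529443.7, for reasons not given in the sources used here.

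Isoform ratios were tested with edgeR 4.0.16 (R 4.3.3, quasi-likelihood) on the paired counts, with a term per library and isoform by group over all 18 libraries, for 2032 events whose mean reached 20 counts in all and 1 count per isoform. Summed counts were tested with edgeR and TMM scaling for 2557 events. For both edgeR tests, the SE given is the absolute log2 change divided by the square root of the F statistic, not a fitted standard error. The 3′-end signal was tested with limma 3.58.1 (trend and robust) on log2(RP10M + 1) for 10858 genes whose mean reached 10 RP10M. That scale understates the change of low genes. Of the 3′-end values, 100% gave whole reads within a tolerance of 0.1. A count test on those reads, tried as an alternative, called 114 genes with edgeR and 451 with DESeq2 1.42.0, against 174 with limma. The tests were tried on simulated counts. Over 3885 events, 244 share a count column with another event.

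The members, the lists and the rule for named genes were chosen with earlier results of these data known. The rule describes each event and 3′-end row of the members, names list events that passed a test, up to 8 per list, and names the 5 events most like Pb1. Alternatives were other filters, scalings, tools, a replicate block, the same age alone and each library left out. The deposited means per genotype were not used. The GRO-seq, CLIP-seq and ChIP-seq samples were not used here. No sequence of a probe or exon was used here.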

Additional observations from a re-analysis of the deposited data

How the results depend on the processing

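The counts of member events and genes that passed were recomputed under each alternative. The week 5 count for the isoform ratio was 2 and became 1 with no filter beyond a mean of 1 count, with a replicate block, with libraries of the same age alone, and without the 2 KO libraries that kept the most Rbfox2 counts (library 3 of week 5 and library 1 of week 9, an alternative chosen after seeing the data). In each case Smarca2 event 8330 was lost, with adjusted p = 0.0818, 0.0854, 0.141 and 0.0668. The week 5 count ranged from 1 to 2 with each library left out. The summed-count result at week 18 became 2 with a minimum mean of 50 counts and with DESeq2 (with Smarca2 event 8271 added each time), at week 5 it became 1 with DESeq2, and at week 9 it became 0 without the 2 high-Rbfox2 KO libraries. With each library left out it ranged from 0 to 1 at week 5 and from 0 to 1 at week 9. Smarca2 event 8271 at week 18 passed with a minimum mean of 50 counts (0.0467), DESeq2 (0.0227), limma (0.0450) and without the 2 high-Rbfox2 KO libraries (0.0416). The week 18 call of Cecr2 was lost with no further filter (0.0572), DESeq2 (0.0794), limma (0.185), the block (0.0542) and the same age alone (0.0507). Libraries of the same age alone also ended the week 5 calls of Mta1 (0.0923) and Bptf (0.0593). The cause of these changes was not tested. The ratio calls of Pbrm1 event 9094 and Smarca2 event 8330 at weeks 9 and 18 held under every alternative run. The week 5 call of Smarcc2 event 8166 also passed each time. That event was kept by the main filter because of KO, so its passing is not counted as support. Replicate numbers were not taken as pairs in the main tests, since the correlation of same-numbered deviations was not above 0.1 for every pair. That rule cannot show that pairing is absent. In the 3′-end data same-numbered libraries gave 0.279, 0.059 and 0.193, and the other pairs gave -0.243 to 0.123. Whether the 3′-end libraries were paired is thus not settled. The replicate block moved no other count of members. With each library left out, 3′-end log2 changes ranged from -0.484 to 0.0322 for Smarca2, -0.473 to 0.0423 for Smarcc1, -0.396 to 0.0717 for Arid2 and -0.101 to 0.323 for Smarca4, and so changed sign, with 0 of 9 genes passing each time. KO minus WT for Pb1 event 3769 from pooled counts was 39.8, 61.5 and 72.8 points at weeks 5, 9 and 18. Over all genes, the median of the log2 changes was 0.07 with limma and -0.03 and -0.02 with edgeR and DESeq2. Low counts limit Smarcc2 event 8166, Pbrm1 event 9094 and Smarca2 events 8385 and 8957.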
